A study of Mus musculus with 20 samples.

Results

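MHC class I presentation genes were followed by the probe sets whose platform gene symbol is H2-K1, H2-D1, H2-T23, B2m, Tap1, Tap2 or Tapbp, which gave 11 of the 12654 probe sets on the array. These 11 belonged to 6 of the 7 genes, since no probe set carried H2-T23 as its only symbol. RNA of extraocular muscle, which moves the eye, and of leg muscle was hybridised to single-colour Affymetrix arrays, which read each transcript as the brightness of a set of short probes. The mice were 8 weeks old and either mdx or control, with 5 arrays in each of the 4 groups: leg mdx, leg control, extraocular mdx and extraocular control. The mdx mouse carries a nonsense mutation in Dmd, which encodes the membrane-linked muscle protein dystrophin, and is a model of Duchenne muscular dystrophy. The strain is not named in the labels, the control leg arrays are labelled gastrocnemius/soleus, and the mdx leg arrays are labelled only as leg muscle. Arrays of a group are labelled as replicates, with nothing on whether they stand for separate mice, so the spread behind each p-value may be partly technical. Control and mdx arrays also carry different description labels, so genotype cannot be told apart from any difference in how those arrays were made.

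Class I molecules show peptides from inside the cell to CD8 T cells and to natural killer cells. A heavy chain, in the mouse H2-K or H2-D, pairs with the small invariant chain beta-2 microglobulin, while the transporter made of TAP1 and TAP2 carries peptides into the endoplasmic reticulum and tapasin holds the empty heavy chain next to that transporter. Healthy muscle fibres carry little class I at their surface, whereas leukocytes and endothelial cells carry much more, and interferons raise transcription of the whole set. In whole muscle, fewer cells of a type and less RNA per cell cannot be told apart, and neither can a change in fibres and a change in the cells between them.

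Signals are given after scaling each array to a trimmed mean of 500, and differences are log2 differences from a limma fit of all 20 arrays, called where the Benjamini-Hochberg adjusted p over the 7204 tested probe sets was under 5%. Of the 11 probe sets 10 were tested, for 5 genes; the Tap2 probe set was too dim. Names ending in _f_at, which 5 of the 10 carry, mark probe sets designed on sequence shared within a gene family. There H2-K1 and H2-D1 signal cannot be fully separated from each other or from that of other class I genes. Between 47.2% and 52.0% of probe sets reached a signal of 200 on each array. Dmd signal averaged 77.5 ± 32.3 on leg mdx and 149 ± 40.2 on leg control arrays (SD, n = 5 each; log2 difference -0.92, adjusted p = 0.0323), and 119 ± 31.7 on extraocular mdx and 268 ± 47.4 on extraocular control arrays (-1.18, adjusted p = 0.233). All 11 tested striated muscle defining genes were without a call in either mdx comparison. Of all tested probe sets 17.9% were called in leg and 0.0833% in extraocular muscle, so the extraocular count carries little information. The summed signal of the 11 genes was 46239 to 97453 on leg mdx, 61149 to 179234 on leg control, 85353 to 148868 on extraocular mdx and 73743 to 111516 on extraocular control arrays.

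Control arrays labelled rep 1 stood apart for these genes in both muscles. On extraocular control 1, 9 of the 10 tested probe sets were above the other 4 extraocular controls, against 20.9% of all tested probe sets, and 5 of the 10 were the highest of all 20 arrays, against 4.57%. On leg control 1, 6 of the 10 were above the other 4 leg controls, against 21.6% of all tested probe sets. Leg control 4 stood apart in other genes. Myl2, a myosin light chain of slow fibres, read 45.2 there, against 8608 to 20215 on the other 4 leg controls, and Bpifa2, a secreted protein of salivary glands, read 8892, against 78.1 to 828. Both genes were chosen after their values were seen. Without leg control 4 the leg count given next was also 6 of 10 probe sets. Results that rest on the arrays labelled rep 1 are given with and without them.

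**Figure D1:**
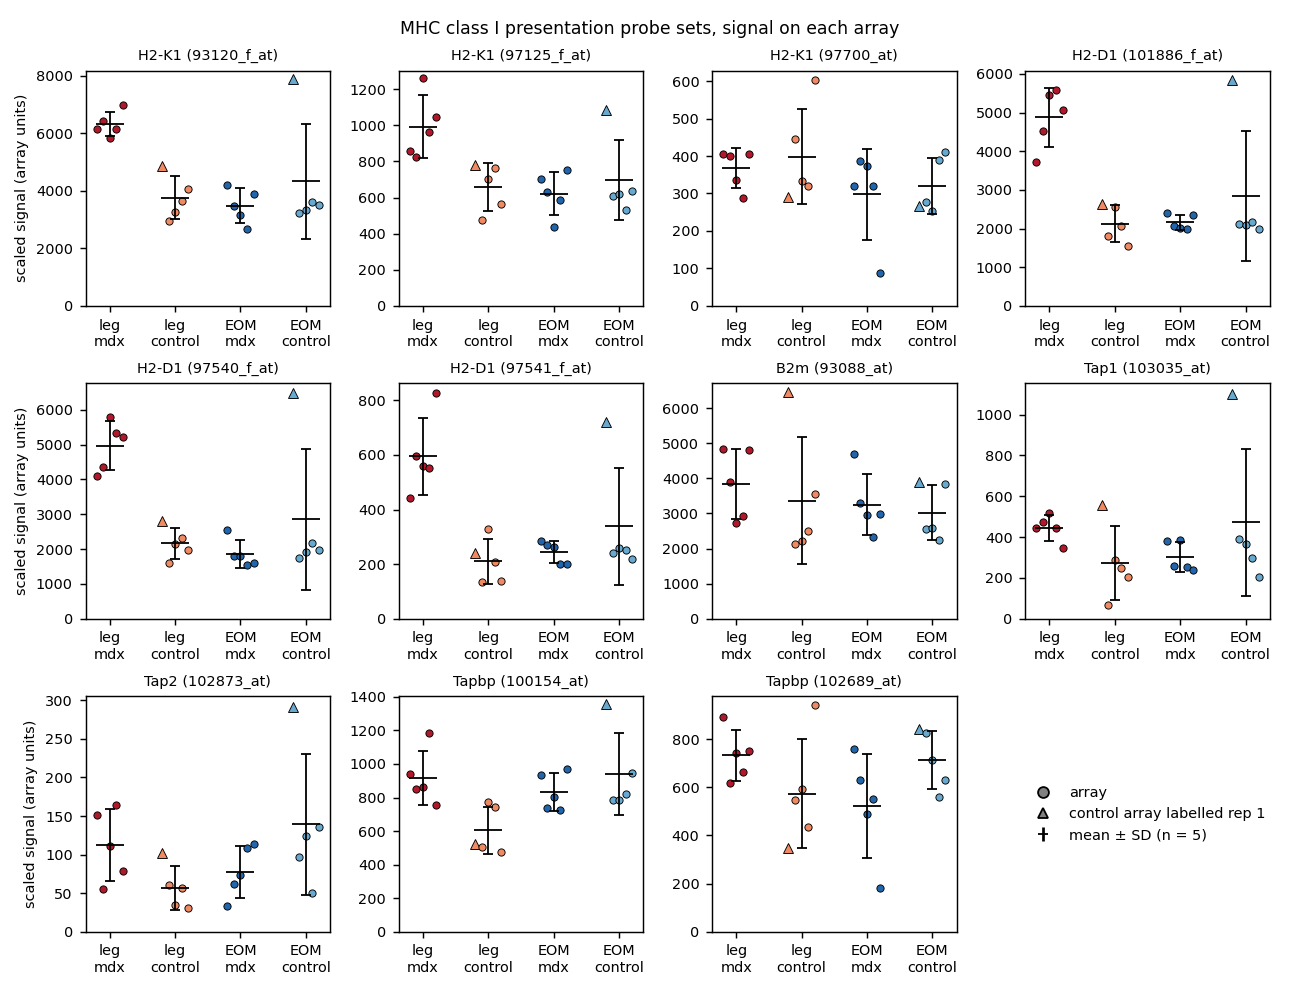
Scaled signal (array units, linear axes from 0) of the 11 probe sets on each of the 20 arrays, with bars for mean ± SD (n = 5); triangles mark the control arrays labelled rep 1. Leg mdx arrays lie above all leg control arrays for both family-wide H2-K1 probe sets and all 3 H2-D1 probe sets, and the triangle of extraocular control 1 lies far above its group in most panels.

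In leg muscle the family-wide (_f_at) probe sets of the heavy chains were higher in mdx mice. Calls were made for 6 of the 10 probe sets, all higher, where 10.7% of all tested probe sets were called higher and 17.9% either way. The 6 covered H2-D1 with 3 probe sets, H2-K1 with 2 and Tapbp with 1, whereas B2m, Tap1, 1 H2-K1 and 1 Tapbp probe set did not pass. For 5 of the 10 every leg mdx array was above every leg control array, against 8.38% of all tested probe sets, and the median log2 difference of the 10 was 0.69, against -0.06 over all tested probe sets. In extraocular muscle none of the 10 was called in limma, none had an unadjusted p under 0.05, and 0.0833% of all tested probe sets were called.

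H2-D1 encodes the classical heavy chain of the D locus on chromosome 17. Its probe set 101886_f_at read 3732, 4525, 5454, 5591 and 5055 on the leg mdx arrays, against 2641, 1796, 2564, 2076 and 1537 on the leg control arrays. On extraocular mdx arrays it read 2408, 2072, 2009.6, 1988 and 2345, against 5848, 2109, 2086, 2163 and 1981 on extraocular control arrays. The lowest leg mdx array was above the highest leg control array, while 3 of the 5 extraocular mdx arrays fell within the range of extraocular controls 2 to 5 and the other 2 lay above it. Extraocular control 1 was above every leg mdx array. The leg difference was 1.21 (SE 0.23, 2.32-fold, adjusted p = 0.000533) and the extraocular difference was -0.25 (SE 0.23, adjusted p = 0.999).

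The other H2-D1 probe sets behaved alike in leg muscle. Probe set 97540_f_at averaged 4963 ± 705 on leg mdx and 2167 ± 443 on leg control arrays (SD, n = 5 each), a difference of 1.21 (SE 0.26, adjusted p = 0.00176). Probe set 97541_f_at, dimmer on this array, averaged 595 ± 141 on leg mdx and 210.3 ± 81.5 on leg control arrays, a difference of 1.56 (SE 0.30, adjusted p = 0.000627). Neither pair of groups overlapped. In extraocular muscle they averaged 1863 ± 401 and 244 ± 40.5 on mdx arrays, against 2862 ± 2025 and 338 ± 214 on control arrays, where extraocular control 1 gave 6473 and 719.6. Those differences were -0.44 and -0.32, both with an adjusted p of 0.999, and without extraocular control 1 they were -0.09 and -0.0056.

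H2-K1, the classical heavy chain gene of the K locus on the same chromosome, had 3 probe sets that did not all behave alike. The brightest, 93120_f_at, read 6169, 6439.9, 5855, 6155 and 6987 on leg mdx arrays, against 4857, 2955, 3262, 3663 and 4071 on leg control arrays. Extraocular mdx arrays read 4208, 3480.4, 3151, 2659.6 and 3907, against 7906, 3249, 3346, 3619 and 3526 on extraocular control arrays. Leg mdx and leg control arrays did not overlap, and extraocular control 1 gave the highest value of all 20 arrays. The leg difference was 0.77 (SE 0.20, 1.70-fold, adjusted p = 0.00802), and the extraocular difference was -0.24 (SE 0.20, adjusted p = 0.999), or 0.0022 without extraocular control 1.

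Probe set 97125_f_at averaged 991 ± 174 on leg mdx and 657 ± 133 on leg control arrays, again with no overlap (0.60, SE 0.19, adjusted p = 0.0338). This call was the least secure of the 6: the adjusted p was 0.0987 without leg control 2, 0.0766 without leg control 5, 0.1005 without leg mdx 3, 0.0550 without leg mdx 4 and 0.0727 without leg mdx 5. The third H2-K1 probe set, 97700_at, which is not a family-wide set, averaged 367 ± 53.4 on leg mdx and 399 ± 128 on leg control arrays, and its difference of -0.08 (95% interval -0.73 to 0.57, adjusted p = 0.900) was not called. The probe sets of this early array design carry the annotation given for the platform, and whether 97700_at measures H2-K1 transcripts was not tested.

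**Figure D2:**
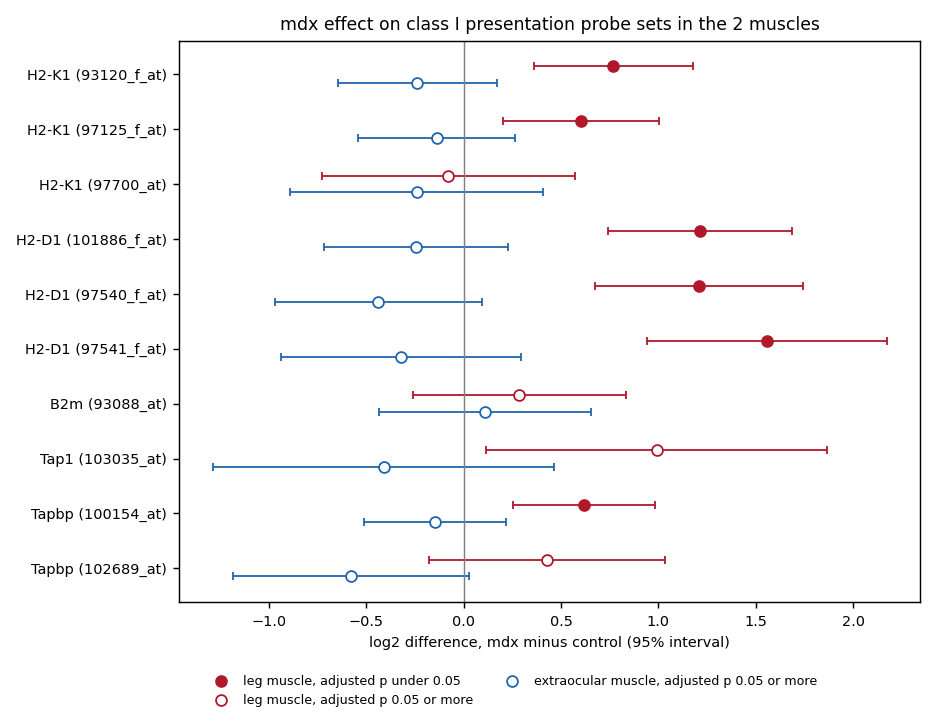
Log2 difference of mdx minus control (x axis) with its 95% interval for the 10 tested probe sets, in leg muscle (red) and extraocular muscle (blue); filled points have an adjusted p under 0.05. Filled points are the 6 leg calls, with differences from 0.60 to 1.56, and every extraocular interval includes 0.

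Family-wide probe sets of H2-K1 and H2-D1 were called in leg muscle, and stretches of the promoters of both genes are shown for comparison. They come from RefSeq, build GRCm38.p6, and 6 of the 7 genes have an entry in the promoter table. The stretches are given 5′ to 3′ on the gene's own strand. Capitals mark matches to 4 motifs, each searched on both strands: the NF-kappa B type letters GGGATTCCC and GGAAAGTCC, the interferon response type letters AANNGAAA, and the cyclic AMP element core TGACG. No 2 of the capital runs overlap. The H2-K1 stretch is chr17:34000379-34000463 on the minus strand, bases -116 to -32 from the most upstream start in the table. The H2-D1 stretch is chr17:35262918-35263002 on the plus strand, bases -176 to -92. The B2m stretch, shown because its gene was not called, is chr2:122147545-122147618 on the plus strand, bases -142 to -69.
H2-K1: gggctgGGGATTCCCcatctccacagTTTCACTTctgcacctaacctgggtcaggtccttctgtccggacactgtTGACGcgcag
H2-D1: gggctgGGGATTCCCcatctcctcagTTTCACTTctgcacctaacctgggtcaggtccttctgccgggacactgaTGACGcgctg
B2m: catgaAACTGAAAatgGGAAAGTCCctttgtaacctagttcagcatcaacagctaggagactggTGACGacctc

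Over these 85 bases H2-K1 and H2-D1 were identical at 80 positions (94.1%), with no gap. Both hold GGGATTCCC, which occurred in 99 of 32851 promoter windows (0.301%, each the 250 bases before a start), belonging to 95 genes, among them the class I genes H2-Q6 and H2-Q7. GGAAAGTCC, which B2m holds, occurred in 0.283% of windows, while AANNGAAA (21.3%) and TGACG (17.8%) were common. H2-K1, H2-D1 and B2m each hold 1 match of AANNGAAA and 1 of TGACG. H2-T23 holds 2 matches of AANNGAAA alone, Tap1 holds 1 of TGACG alone, and Tapbp holds none of the 4 motifs. The motifs were chosen after these promoters had been read, and a match is a description of letters and not a binding site.

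Tested against each other, the mdx effects of the 2 muscles differed for family-wide probe sets of the heavy chains. The difference of the effects, leg minus extraocular, was called for 4 of the 10 probe sets, all higher in leg, where 4.93% of all tested probe sets were called higher and 6.22% either way. The values were 1.46 (SE 0.32, adjusted p = 0.0071) for H2-D1 101886_f_at, 1.65 (SE 0.36, adjusted p = 0.0071) for 97540_f_at and 1.88 (SE 0.42, adjusted p = 0.0079) for 97541_f_at. H2-K1 93120_f_at gave 1.01 (SE 0.28, adjusted p = 0.0323). Without extraocular control 1 the same 4 probe sets were called, at 1.16, 1.30, 1.56 and 0.77, with adjusted p of 0.00137, 0.000894, 0.00769 and 0.0229.

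The H2-K1 difference depended on single arrays, whereas those of H2-D1 stayed called without any 1 array. For H2-K1 93120_f_at the adjusted p was 0.0607 without leg control 2, 0.0555 without leg control 3, 0.0509 without leg mdx 2, 0.0609 without leg mdx 5, 0.0596 without extraocular mdx 3 and 0.0628 without extraocular mdx 4. The remaining 6 probe sets also had a positive difference of effects, from 0.16 for H2-K1 97700_at to 1.40 for Tap1, and none of these passed.

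B2m, on chromosome 2, encodes the light chain that every classical class I molecule needs. Its probe set 93088_at read 4832, 3898, 2734, 2936 and 4795 on leg mdx arrays, against 6455, 2120.3, 2217, 2505 and 3543 on leg control arrays. Extraocular mdx arrays read 4680.2, 3306, 2962, 2329 and 2996, against 3882, 2551, 2573, 2231 and 3838 on extraocular control arrays. Both pairs of groups overlapped across most of their range, and leg control 1 had the highest B2m signal of all 20 arrays. The leg difference was 0.29 (95% interval -0.26 to 0.83, adjusted p = 0.518), or 0.55 without leg control 1 (adjusted p = 0.0982), and the extraocular difference was 0.11 (95% interval -0.44 to 0.66, adjusted p = 0.999). The interval for leg muscle leaves room for a rise near that of H2-K1, so the missing call does not show that B2m was unchanged.

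Tap1 and Tap2 encode the subunits of the peptide transporter and lie near each other on chromosome 17. Tap1 (103035_at) read 443, 473, 519.9, 444 and 347 on leg mdx arrays, against 559, 66.3, 286, 249 and 205 on leg control arrays. It read 383, 258, 385, 253 and 239.8 on extraocular mdx arrays, against 1100.2, 392, 364, 297 and 206 on extraocular control arrays. Leg controls 2 to 5 were below every leg mdx array, and leg control 1 was above them all. The leg difference was 0.99 (SE 0.42, adjusted p = 0.115) and was not called, but without leg control 1 it was 1.32 with an adjusted p of 0.0278. In extraocular muscle the difference was -0.41 (SE 0.42, adjusted p = 0.999), and -0.04 without extraocular control 1.

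Tap2 (102873_at) was near the floor of measurement on many arrays and was not tested. It read 151, 55.3, 111, 164 and 78.5 on leg mdx arrays, against 102, 60.8, 34.9, 56.7 and 30.6 on leg control arrays. On extraocular arrays it read 32.7, 61.4, 72.9, 108 and 114 in mdx, against 292, 96.3, 124, 49.7 and 135 in controls. The groups overlapped in both muscles, and extraocular control 1 had the highest value of the 20 arrays here too.

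Tapbp encodes tapasin, which bridges the transporter and the empty heavy chain. Probe set 100154_at read 938, 850.1, 864, 1182 and 758 on leg mdx arrays, against 524, 504, 774, 742 and 477 on leg control arrays. Extraocular mdx arrays read 936, 735, 804, 726 and 971, against 1358, 783, 784, 824 and 944 on extraocular control arrays. Only the lowest leg mdx array overlapped the leg controls, and the leg difference of 0.62 (SE 0.18, 1.54-fold) was called, with an adjusted p of 0.0160, but not without leg mdx 4 (adjusted p = 0.0535). The extraocular difference was -0.15 (SE 0.18, adjusted p = 0.999). The difference of effects was 0.77 (SE 0.25, adjusted p = 0.0737), which passed without leg control 3 (adjusted p = 0.0408) or leg control 4 (adjusted p = 0.0461). The second Tapbp probe set, 102689_at, averaged 733 ± 105 on leg mdx and 572 ± 226 on leg control arrays (0.43, SE 0.29, adjusted p = 0.355), and was not called in any comparison.

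H2-T23 encodes Qa-1, a nonclassical heavy chain that presents leader peptides of other class I molecules to receptors of natural killer cells. It was read only by probe sets annotated to several genes, of which 4 listed a member and 2 were tested, so no value can be given to H2-T23 itself. Probe set 98472_at, annotated to H2-T23 and H2-T-ps, read 370.0, 329, 475, 361 and 447 on leg mdx arrays, against 485, 254, 309.9, 217 and 183 on leg control arrays. The groups overlapped through leg control 1, and the difference was 0.52 (SE 0.29, adjusted p = 0.238). On extraocular arrays it averaged 310.0 ± 50.9 in mdx and 404 ± 242 in controls (-0.24, adjusted p = 0.999), where extraocular control 1 read 824. Probe set 102161_f_at, which lists 10 symbols including H2-K1, H2-D1 and H2-T23, differed by 0.86 in leg muscle (SE 0.36, adjusted p = 0.112).

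Leg mdx had the highest group mean of the 4 groups for every one of the 5 called heavy chain probe sets. For these 5, neither extraocular mdx minus extraocular control nor extraocular control minus leg control was called. Extraocular mdx was not compared with leg control. Between extraocular mdx and leg mdx arrays, 5 of the 10 probe sets were called, all lower in extraocular muscle, where 8.83% of all tested probe sets were called lower and 18.1% either way. All 5 were H2-K1 or H2-D1 probe sets whose groups did not overlap, against 7.02% of all tested probe sets that did not overlap and were lower. The differences of extraocular mdx minus leg mdx were -1.43 (SE 0.26, adjusted p = 0.000354) for H2-D1 97540_f_at, -1.27 for 97541_f_at (adjusted p = 0.00378), -1.16 for 101886_f_at (adjusted p = 0.000854), -0.88 for H2-K1 93120_f_at (adjusted p = 0.00284) and -0.68 for 97125_f_at (adjusted p = 0.0169). The call for 97125_f_at was lost without leg mdx 3 (adjusted p = 0.0545) or extraocular mdx 3 (adjusted p = 0.0577). B2m, Tap1 and both Tapbp probe sets did not pass, with differences from -0.13 to -0.62. This comparison shares the leg mdx arrays with the leg comparison above, so the heavy chain values are not separate evidence.

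The muscles of control mice were compared next. Between extraocular control and leg control arrays 1 of the 10 probe sets was called, Tapbp 100154_at, which was higher in extraocular muscle, where 10.3% of all tested probe sets were called higher and 17.7% either way. It averaged 939 ± 244 on extraocular control and 604 ± 142 on leg control arrays (SD, n = 5 each), a difference of 0.63 (SE 0.18, adjusted p = 0.0141), and every extraocular control array was above every leg control array, as in 7.69% of all tested probe sets. Without extraocular control 1 the difference was 0.49 with an adjusted p of 0.0497, and without both that array and leg control 1 it was 0.45 with an adjusted p of 0.0951. Of the 9 others, Tap1 had the largest difference (0.83, 95% interval -0.05 to 1.71, adjusted p = 0.202), followed by H2-D1 97541_f_at (0.60, adjusted p = 0.185). Tap1 was called with array weights (1.18, adjusted p = 0.0360). Extraocular control 1 read 1100.2 for Tap1 and 719.6 for 97541_f_at, against 206 to 392 and 217 to 259 on the other extraocular controls. With each array left out in turn, the differences were 0.39 to 1.16 and 0.29 to 0.79. Neither passed then (lowest adjusted p 0.0532 and 0.0806). H2-K1 93120_f_at (0.13, adjusted p = 0.727), H2-D1 101886_f_at (0.30, adjusted p = 0.420) and B2m (-0.06, adjusted p = 0.913) were not called either.

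Extraocular control 1 carried a wider set of interferon induced transcripts. It read 7906 for H2-K1 93120_f_at, against 3249 to 3619 on the other 4 extraocular controls, and 1100.2 for Tap1, against 206 to 392. Of 14 tested interferon induced genes 12 were above the other 4 extraocular controls and 9 were the highest of all 20 arrays. Iigp1, an interferon induced GTPase, read 5373 against 495 to 862, and Gbp2, a guanylate binding protein, read 3083 against 406 to 554. Psmb9, an immunoproteasome subunit whose gene lies beside Tap1, read 756 against 64.3 to 207, and Irf7, a transcription factor of the interferon response, read 928 against 98.6 to 217. These 4 genes were chosen for display after their values on this array were seen. Of 11 macrophage and leukocyte markers 3 were above the other 4 controls, and of 10 MHC class II presentation genes 5 were, against 20.9% of all tested probe sets. Among the class II genes Cd74 read 3424 against 1706 to 2118 and H2-Ab1 read 565 against 147 to 332, both also chosen after their values were seen. Of 11 striated muscle genes 1 was above the other 4 controls. None of the tested macrophage and leukocyte, class II or striated muscle genes was the highest of 20.

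**Figure D3:**
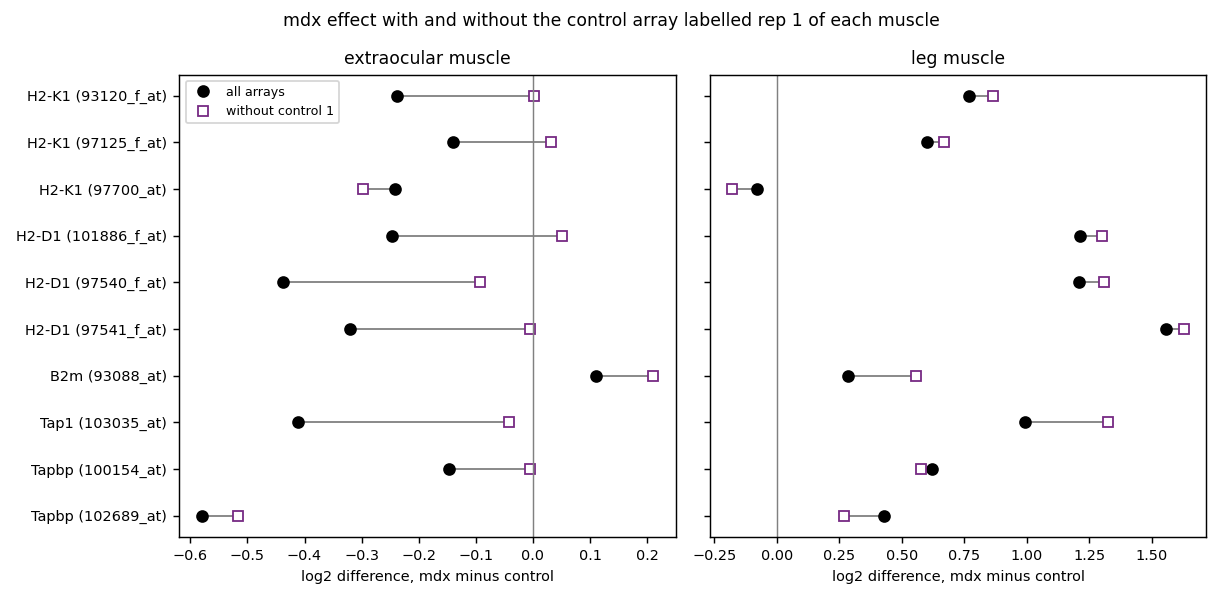
Log2 difference of mdx minus control (x axes, which differ in range) of the 10 tested probe sets in extraocular and leg muscle, with all arrays (black circles) and without the control array labelled rep 1 of that muscle (open squares). In extraocular muscle 7 of the 9 negative differences move to between -0.09 and 0.05, and in leg muscle Tap1 and B2m move up.

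Leaving out extraocular control 1 left 0 calls among the 10 probe sets in extraocular muscle, and the median log2 difference became -0.0054 in place of -0.24. Leaving out leg control 1 gave 7 calls in leg muscle in place of 6, with Tap1 added. On leg control 1, 9 of 14 interferon induced genes and 9 of 11 striated muscle genes were above the other 4 leg controls. What set these 2 arrays apart was not tested.

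Other genes of the class I pathway were followed in leg muscle from the lists, to be read against the 10.7% of all tested probe sets called higher. Of the other class I and class I-like heavy chains 3 of 10 tested genes were higher and none lower: Hfe, a class I-like protein of iron balance (0.57, adjusted p = 0.0182), H2-K2 (2.82-fold, adjusted p = 0.0207) and H2-Q4 (1.40, adjusted p = 0.0241). H2-K2 averaged 4284 ± 758 on leg mdx and 1882 ± 1350.2 on leg control arrays, and its probe set, like that of H2-Q4, is shared within the family. The count was 2 without leg control 1, 2 without leg control 4 and 1 without both.

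Among 10 tested chaperones and peptidases that help to load or trim peptides, 4 were higher and 1 was lower in leg mdx muscle. Sec61a1, of the channel into the endoplasmic reticulum, averaged 2468 ± 499 on leg mdx and 1258 ± 364 on leg control arrays (0.99, adjusted p = 0.000135). Hspa5, the chaperone BiP, rose by 0.81 (adjusted p = 0.000764). Pdia6 and Pdia3, of the protein disulfide isomerases, rose by 1.04 (adjusted p = 0.00545) and 1.30 (adjusted p = 0.0222), the largest rise of the list. The peptidase gene Nrd1 fell by 0.69 (adjusted p = 0.0137). These are general proteins of the secretory pathway and of peptide turnover, not of class I loading alone. The median of the 10 was 0.21, against -0.06 over all tested probe sets.

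None of the 6 genes of the immunoproteasome and its activator, which cut proteins into peptides suited to class I, was called in limma with all arrays. Psmb9 came closest: it averaged 374 ± 41.6 on leg mdx and 164 ± 130 on leg control arrays, a 2.83-fold difference (adjusted p = 0.0506). Psmb8 differed by 0.72 (adjusted p = 0.103) and Psmb10 by 0.41 (adjusted p = 0.0975). Without leg control 1, 2 of the 6 were called higher and without extraocular control 1 it was 1 of the 6.

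Interferon induced genes and interferon receptor genes were called higher in leg muscle in 3 cases each, where 10.7% of all tested probe sets were. Of 14 tested interferon induced genes 3 were higher: Lgals3bp, a secreted glycoprotein (1.32, adjusted p = 0.000377), Ifi204, a DNA-binding protein (1.16, adjusted p = 0.000851), and Ifi27l2a (0.70, adjusted p = 0.0101). Lgals3bp averaged 1082 ± 143 on leg mdx and 439 ± 101 on leg control arrays. Of 10 interferons and receptor genes 3 were higher, Il10rb (0.95, adjusted p = 0.000251), Ifnar1 (1.11, adjusted p = 0.00352) and Ifnar2 (0.94, adjusted p = 0.00896), which are receptor chains. Of 15 regulators of class I transcription, Irf8, a factor of myeloid cells, was the single call (1.64, adjusted p = 0.000772). The medians of the 3 lists were 0.20, -0.10 and 0.18.

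Receptors that read class I could hardly be assessed, since 3 of 15 genes on the array were bright enough to test. Pirb, an inhibitory receptor of myeloid and B cells, averaged 579 ± 83.9 on leg mdx and 340 ± 103 on leg control arrays (0.82, adjusted p = 0.00784), while Klrc1 and Gzmb, of killer cells, differed by -0.37 and -0.03 and did not pass. In extraocular muscle limma called none of the genes of these lists of the class I pathway and of interferon, and 0.0833% of all tested probe sets.

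In leg muscle leukocyte transcripts were also higher in mdx mice, most of them by more than the class I heavy chain probe sets. Cd14 (1.20) and Cybb (1.05) differed by less than each H2-D1 probe set. All 11 tested macrophage and leukocyte markers were called higher in leg mdx muscle, against 10.7% of all tested probe sets. Of the markers 15 were on the array. The leg mdx group holds as many arrays as the filter asks for, so a gene bright there alone could be tested. Cd53 averaged 1391 on leg mdx, 40.9 on leg control, 104 on extraocular mdx and 17.9 on extraocular control arrays. The share of tested markers called higher is therefore partly set by the filter. The summed signal of the 11 markers was 24199 to 31427 on leg mdx, against 2858 to 3994 on leg control arrays. Lyz2, the lysozyme of macrophages, averaged 9099 ± 714 on leg mdx and 599 ± 255 on leg control arrays (4.06, adjusted p = 9.9e-10), and Cd68 averaged 2090 ± 481 on leg mdx and 489 ± 70.7 on leg control arrays (2.08, adjusted p = 9.9e-10). MHC class II presentation is confined mostly to professional antigen-presenting cells. Of its 10 tested genes 8 were called higher, against the same 10.7%, among them Cd74 (2.14) and H2-Aa (2.69). The same limit of the filter holds for this list, of which 12 genes were on the array. In extraocular muscle the marker sum was 4843 to 9070 on mdx and 4564 to 5610 on control arrays. None of the 11 was called there, against 0.0833% of all tested probe sets, and Ctss was the single class II pathway gene called (1.04, adjusted p = 0.0259).

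The 11 markers that passed the filter had a median log2 difference of 3.07 in leg muscle, against 0.69 for the 10 class I probe sets. In extraocular muscle these medians were 0.65 and -0.24. The filter could be passed on leg mdx arrays alone, so markers dim there were more readily left out. Lgals3, for one, averaged 3149 on leg mdx and 60.9 on leg control arrays. The leg median of the markers may be raised by this selection, and its distance from 0.69 is not a measured ratio of effects. The part of the markers in the class I result was not tested. Without leg control 1, 10 of the 11 were called. Of 9 endothelial markers Flt1 alone was called in leg muscle, where 17.9% of all tested probe sets were called either way. It fell by 0.71 (adjusted p = 0.0103). The beta-actin 3′ to 5′ signal ratio, a check used for RNA quality, also parted the leg groups. It was lower on leg mdx arrays, at -3.61 to -0.22 in log2 units, than on leg control arrays, at 0.06 to 0.94. The 5′ probe set was thus the brighter on leg mdx arrays. The ratio of Gapdh was -2.70 to -2.38 on leg mdx and -3.65 to -1.27 on leg control arrays. These ratios do not show that leg mdx RNA was the poorer, and their part in the class I result was not tested either.

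**Figure D4:**
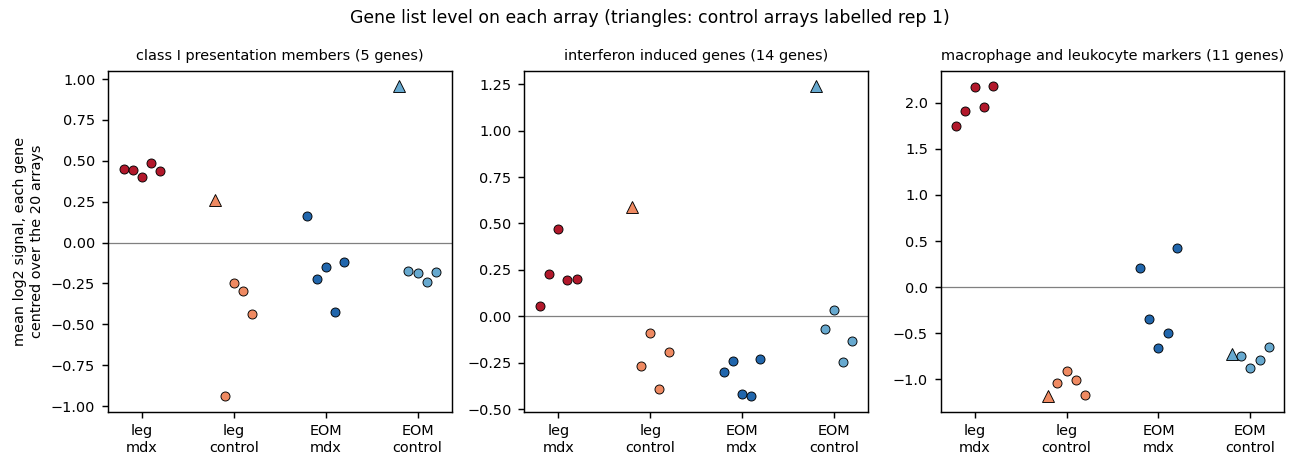
Mean log2 signal of 3 gene lists on each array, each gene centred on its mean over the 20 arrays; triangles mark the control arrays labelled rep 1, and the panels have different ranges. Extraocular control 1 is the highest array for class I genes (0.96) and interferon induced genes (1.24) but lies at -0.72 for macrophage markers, where leg mdx arrays lie between 1.75 and 2.18.

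Genes outside the set were ranked by Pearson r of their log2 signal, over the 20 arrays, with the mean centred log2 signal of the 5 members. The 8 highest were Lgals3bp (0.84), Psmb8 (0.82), Ifi204 (0.80), Psmb9 (0.79), H2-K2 (0.78), Plac8 (0.78), Ifi27 (0.78) and H2-D4 (0.77). Those of H2-K2 and H2-D4 come from _f_at probe sets, whose signal cannot be fully separated from that of the member heavy chains. With each group's mean removed, r was 0.58 to 0.79 for the 8, the highest being Psmb8. The arrays share groups and extraocular control 1 is extreme for several of these genes, so the r values are a description and carry no p.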

How the data were processed

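Total RNA from extraocular and leg muscle was hybridised to single-colour arrays, 20 in all. Each value the authors deposited is the linear intensity of a probe set on an array. Intensities span 0.4 to 95476.8 with a 2% trimmed mean of 1500.1 on every array, so scaling had been done; the sources used here do not give its software. Each array was rescaled to a 2% trimmed mean of 500 over 12588 non-control probe sets, values under 50 were set to 50, and log2 was taken. Probe sets reaching 200 on at least 5 arrays, 7204 in number, were tested. limma 3.58.1 in R 4.3.3 (lmFit, eBayes with an intensity trend) modelled the 4 groups over all 20 arrays (16 residual degrees of freedom), and Benjamini-Hochberg adjustment ran within each of 5 contrasts. Printed signals are scaled values before the floor, and folds come from the log2 values.

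The platform annotation gave 1 symbol for 10298 probe sets, several for 363 and none for 1993. Its names are those of an early array design and some probe sets may not measure their gene. Genes of 11 lists other than the members stand by their brightest tested probe set, and up to 4 per list and contrast with the smallest adjusted p are named. Pdia3, Cd14 and Cybb were added for their leg values. Like-pattern genes are the 8 with the highest Pearson r. The members and lists were chosen with earlier results of these data known. The number of arrays limits the precision. Simulated data with known changes were used to test the fit. Alternatives were a replicate block, array weights, no trend, fitting only the compared groups, a filter at 500 or no filter, a pseudocount of 50, floors of 100 and 20, quantile normalization, unscaled deposited values, averaging a gene's probe sets, and leaving out each array. Fits without leg controls 1 and 4, and without leg control 1 and extraocular control 1, were added after seeing the data.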

Additional observations from a re-analysis of the deposited data

Results flagged for a closer look

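Single arrays lay far from their group in 9 cases, of which 7 were extraocular control 1. Its signal was 7906 for H2-K1 93120_f_at, 1084 for H2-K1 97125_f_at, 5848 for H2-D1 101886_f_at, 6473 for H2-D1 97540_f_at, 719.6 for H2-D1 97541_f_at, 1100.2 for Tap1 and 1358 for Tapbp 100154_at. The other 4 extraocular controls held 3249 to 3619, 532 to 638, 1981 to 2163, 1758 to 2189.6, 217 to 259, 206 to 392 and 783 to 944 for the same probe sets. The remaining outlying values were extraocular mdx 5 at 89.0 for H2-K1 97700_at, where the other 4 held 319 to 387, and extraocular mdx 1 at 2548 for H2-D1 97540_f_at, where the other 4 held 1547 to 1813. An array counted as far when its gap to the nearest other array was over 0.71 of the range of its group of 5, which is Dixon's 95% critical value. Of 44 groups examined 9 held such a value, and at that level chance gives about 1 in 20 groups. All 7 values of extraocular control 1 come from the same array, so they are not 7 separate events.

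The mdx effect differed between leg and extraocular muscle, by the interaction term in limma, for 4 probe sets. The difference of effects, leg minus extraocular, was 1.01 for H2-K1 93120_f_at, 1.46 for H2-D1 101886_f_at, 1.65 for H2-D1 97540_f_at and 1.88 for H2-D1 97541_f_at. These probe sets are shared within a gene family and do not count as 4 independent genes.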

How the results depend on the processing

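No alternative turned round a called difference. The leg count of 6 probe sets was 5 to 7 under the other settings that count probe sets and 4 to 7 when each array was left out. The extraocular count was 0 throughout, the count for the difference of effects was 3 to 4 (3 to 5 when each array was left out), and that for extraocular mdx minus leg mdx was 5 (4 to 5). The count for extraocular control minus leg control, 1, was 2 with array weights and 2 without leg controls 1 and 4, which add Tap1, and 0 without leg control 1 and extraocular control 1. With the mean of a gene's probe sets the counts are of 5 genes, not 10 probe sets, and were 3 in leg muscle, 2 for the difference of effects and 2 for extraocular mdx minus leg mdx. H2-K1 97125_f_at lost its leg call under quantile normalization (adjusted p = 0.0552) and with no filter (0.0631). H2-K1 93120_f_at lost the call for the difference of effects with no filter (0.0769), with no intensity trend (0.0524) and as a gene mean (0.0555), where that of Tapbp passed (0.0285). Tap1 passed in leg muscle with array weights (0.0230). The causes were not tested.

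Replicate numbers shared between groups gave no clear sign of pairing: of 20 same-numbered pairs 4 correlated above 0.1, with r from -0.08 to 0.23. All 4 were pairs of an mdx and a control array, which cannot come from the same mouse. The labels do not say whether same-numbered arrays share a mouse, and low r does not exclude it. With the replicate number as a block the counts were 6 in leg muscle, 0 in extraocular muscle, 4 for the difference of effects, 1 for extraocular control minus leg control and 5 for extraocular mdx minus leg mdx, and the block changed no call.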

Other observations

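Whether the heavy chains and their light chain moved by the same amount in leg muscle was examined after their values were seen. The log2 signal of H2-D1 101886_f_at minus that of B2m was -0.37 to 1.00 on leg mdx and -1.29 to 0.21 on leg control arrays, a difference of 0.93 (two-sided exact permutation p = 0.0714 over 252 splits, adjusted p = 0.159 over 4 such tests). For H2-K1 93120_f_at the difference was 0.48 (exact p = 0.0794, adjusted p = 0.159), with 5 arrays a group. In extraocular muscle the mdx minus control differences were -0.36 for H2-D1 (exact p = 0.246) and -0.35 for H2-K1 (exact p = 0.159). None passed, where the smallest p that 5 against 5 arrays allow is 0.00794, so unequal change of heavy and light chain was not shown.

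Outside the members, H2-D4, a class I gene, gave the steepest step between extraocular control 1 and its group, at 844 against 57.0 to 101 on the other 4 extraocular controls. Its probe set name ends in _f_at, so its signal cannot be fully separated from that of H2-K1 and H2-D1. Ptgds, a prostaglandin D synthase with no place in the class I pathway, followed at 3448 against 301 to 508. Ccl8, a chemokine, read 581 against 46.4 to 196. These 3 were chosen after their values were seen.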
